A study of Homo sapiens with 6 samples.

Results

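The APOBEC3 cytidine deaminases are a family of 7 genes, APOBEC3A, APOBEC3B, APOBEC3C, APOBEC3D, APOBEC3F, APOBEC3G and APOBEC3H. They were taken from the count table by gene identifier, and all 7 were found among its 60664 genes. RNA was sequenced from U2-OS cells, a human osteosarcoma line labelled as polyploid, which carried either a control siRNA (siCTRL, 3 libraries) or siRNA against the RNA-binding protein SFPQ (siSFPQ, 3 libraries). The labels give lipid transfection at 30 nM for the siRNA against SFPQ, in a protocol that the siCTRL samples carry too, and the libraries are described as biological triplicates of 1 cell line. No time between transfection and harvest is given in the labels. The values are raw numbers of reads counted per gene, and each library held between 43469321 and 47119203 counts.

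APOBEC3 enzymes remove the amino group of cytosine in single-stranded DNA and so turn it into uracil. They restrict retroviruses, DNA viruses and retroelements, they are part of the innate immune response, and several of them are induced by interferon or NF-kB in blood cells and epithelia. In tumours, APOBEC3A and APOBEC3B are known as sources of C-to-T and C-to-G mutations, while APOBEC3D, APOBEC3F, APOBEC3G and APOBEC3H are best known as antiretroviral factors that the HIV protein Vif counteracts.

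After SFPQ knock-down the family did not move as a block. APOBEC3H, APOBEC3G, APOBEC3F and APOBEC3C rose by 3.83-fold, 2.49-fold, 1.46-fold and 1.24-fold, APOBEC3B fell to 0.647 of its siCTRL level, and APOBEC3A and APOBEC3D, the members with the fewest counts, did not pass the test. With edgeR's quasi-likelihood test and an adjusted p under 0.05, 4 of the 7 genes were therefore higher and 1 was lower in siSFPQ. Over the 29022 genes tested, 22.4% were called higher and 22.1% lower, so that calls were common in this comparison. Scaled by library size alone, these shares were 26.3% and 19.0%, and the calls of the 7 genes were as before. The median log2 fold change of the 7 genes was 0.31, and that of all genes tested was 0.02. All 7 genes had the 10 counts in total that the test required, but only 4 of them (APOBEC3B, APOBEC3C, APOBEC3F and APOBEC3H) had a mean of at least 1 CPM. CPM stands for the counts of a gene scaled to 1000000 counts of the TMM-adjusted library size. SFPQ itself had 22338, 23139 and 21753 counts in siCTRL and 3140, 3863 and 3151 in siSFPQ, a log2 fold change of -2.73 (SE 0.0498, adjusted p = 6.33e-30).

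The 7 genes lie next to each other on the plus strand of chromosome 22, within 151 kb (GRCh38, GENCODE release 44). In map order, APOBEC3A spans chr22:38952741-38963184, APOBEC3B chr22:38982347-38992804, APOBEC3C chr22:39014257-39020352 and APOBEC3D chr22:39021113-39033277. They are followed by APOBEC3F at chr22:39040604-39055972, APOBEC3G at chr22:39077067-39087743 and APOBEC3H at chr22:39097224-39104067. Each gene encodes 1 or 2 zinc-binding deaminase domains, marked by a histidine and a glutamate codon with 1 codon between them. The translated coding sequence of each canonical transcript was searched for this pair with a proline, a cysteine and a further cysteine downstream. The search found 1 such motif in APOBEC3A, APOBEC3C and APOBEC3H, and 2 in APOBEC3B, APOBEC3D, APOBEC3F and APOBEC3G. The 30 coding bases from the motif onward are shown because they let a reader see how alike the genes are that the reads had to be divided between. Capitals mark the histidine and glutamate codons.
APOBEC3A, and the second motif of APOBEC3B: CATgcgGAGctgcgcttcttggacctggtt
APOBEC3C, and the second motif of APOBEC3D and of APOBEC3F: CATgcaGAAaggtgcttcctctcttggttc
first motif of APOBEC3B and of APOBEC3F: CACgcaGAAatgtgcttcctctcttggttc
first motif of APOBEC3D: CACgcaGAAatgtgcttcttatcttggttc
first motif of APOBEC3G: CACccaGAGatgagattcttccactggttc
second motif of APOBEC3G: CATgcaGAGctgtgcttcctggacgtgatt
APOBEC3H: CATgcaGAAatttgctttattaacgagatc

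The stretch of APOBEC3A was identical to the second one of APOBEC3B, whereas that of APOBEC3H differed from it at 13 of 30 bases. Across the aligned coding bases, identity was highest between APOBEC3A and APOBEC3B (94.1%), APOBEC3C and APOBEC3D (90.7%), and APOBEC3C and APOBEC3F (90.2%). It was lowest between APOBEC3A and APOBEC3C (61.1%). Paired reads of 150 bases were used, and of all stretches of 150 bases in the canonical transcript, none in APOBEC3C or APOBEC3H occurred in another gene, compared with 2.99% in APOBEC3F, 4.03% in APOBEC3G, 6.20% in APOBEC3A and 8.61% in APOBEC3B. APOBEC3D stood apart, since 84.5% of its stretches recurred, most of them in an annotated readthrough gene (ENSG00000284554) that covers 83.2% of its exon bases and had 0 counts in all libraries. How reads that fit several genes were counted is not given in the sources used here, so the counts of APOBEC3A, APOBEC3B and APOBEC3D in particular carry this uncertainty. For APOBEC3D it concerns most of the gene: reads on the shared 83.2% of its exon bases may be missing from its counts, which was not tested.

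APOBEC3C, a deaminase with 1 domain, had the most counts of the family. It was counted 4102, 4278 and 4334 times in siCTRL and 5018, 5035 and 5782 times in siSFPQ. Every siSFPQ library lay above every siCTRL library, as was the case for 26.9% of all genes tested. Its level was 92.8 ± 2.65 CPM (SD, n = 3) in siCTRL and 115 ± 8.66 CPM in siSFPQ, a log2 fold change of 0.31 (SE 0.0451, 95% confidence interval 0.22 to 0.40, adjusted p = 5.6e-07).

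APOBEC3B, the nuclear member with 2 domains, was the only one that fell. Its 3741, 3525 and 3830 counts in siCTRL compared with 2310, 2403 and 2487 in siSFPQ. The lowest siCTRL library was thus well above the highest siSFPQ library, an order that 25.4% of all genes tested showed. The level went from 81.0 ± 3.54 CPM to 52.4 ± 1.14 CPM, a log2 fold change of -0.63 (SE 0.0439, interval -0.72 to -0.54, adjusted p = 4.7e-14). An annotated antisense RNA, APOBEC3B-AS1, shares 12.9% of the exon bases of APOBEC3B. It had between 1 and 4 counts in each library, and without a stated strand setting its reads cannot be told apart from those of APOBEC3B over these bases.

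APOBEC3F, an antiretroviral member with 2 domains, had 851, 818 and 876 counts in siCTRL and 1179, 1307 and 1252 in siSFPQ. The conditions did not overlap. The mean rose from 18.6 ± 0.662 CPM to 27.2 ± 0.706 CPM, with a log2 fold change of 0.55 (SE 0.0611, interval 0.42 to 0.67, adjusted p = 3.03e-09).

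APOBEC3G, the archetype of the antiretroviral deaminases, was scarce in these cells. It had 11, 14 and 30 counts in siCTRL and 38, 49 and 51 in siSFPQ. Replicate 3 stood well above the other two siCTRL libraries and still lay below all siSFPQ libraries. The log2 fold change was 1.31 (SE 0.336, interval 0.63 to 2.0, adjusted p = 0.00155), on means of 0.401 ± 0.224 CPM and 1.00 ± 0.128 CPM. Its size depended on single libraries, being 1.86 without siCTRL replicate 3 and 1.05 without siCTRL replicate 1, while the adjusted p stayed between 0.00014 and 0.0135 in all alternatives that were run.

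APOBEC3H, whose coding bases were at most 71.3% identical to those of any other member, had the highest fold change. Its counts were 26, 30 and 26 in siCTRL and 101, 98 and 117 in siSFPQ. The replicates were close to each other and the conditions far apart. The level rose from 0.598 ± 0.0497 CPM to 2.30 ± 0.214 CPM, a log2 fold change of 1.94 (SE 0.219, interval 1.49 to 2.38, adjusted p = 4.13e-09). It was the only member past the study's additional limit of a log2 fold change of 1.5, which 5.54% of all genes tested exceeded in the upward direction. Of the 15641 genes with a mean of at least 1 CPM, which APOBEC3H reached, 277 did so. APOBEC3H is also among the genes the study put in its innate immunity signature using these libraries, so its rise here is not independent evidence of that choice.

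APOBEC3A, an interferon-inducible enzyme of myeloid cells and keratinocytes, had 1, 9 and 7 counts in siCTRL and 7, 3 and 0 in siSFPQ. The libraries overlapped, and the log2 fold change of -0.74 had an interval from -2.67 to 1.19 (SE 0.948, adjusted p = 0.576). APOBEC3D, with 2 domains, had 7, 21 and 21 counts in siCTRL and 22, 16 and 13 in siSFPQ. These overlapped as well, and the log2 fold change was 0.06 (SE 0.448, interval -0.86 to 0.97, adjusted p = 0.936). The interval of APOBEC3A holds changes of 2-fold in both directions, and that of APOBEC3D lies between 0.552-fold and 1.96-fold. A floor of 3 counts equals 0.0642 to 0.0676 CPM in these libraries, and it covers counting error only.

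**Figure D1:**
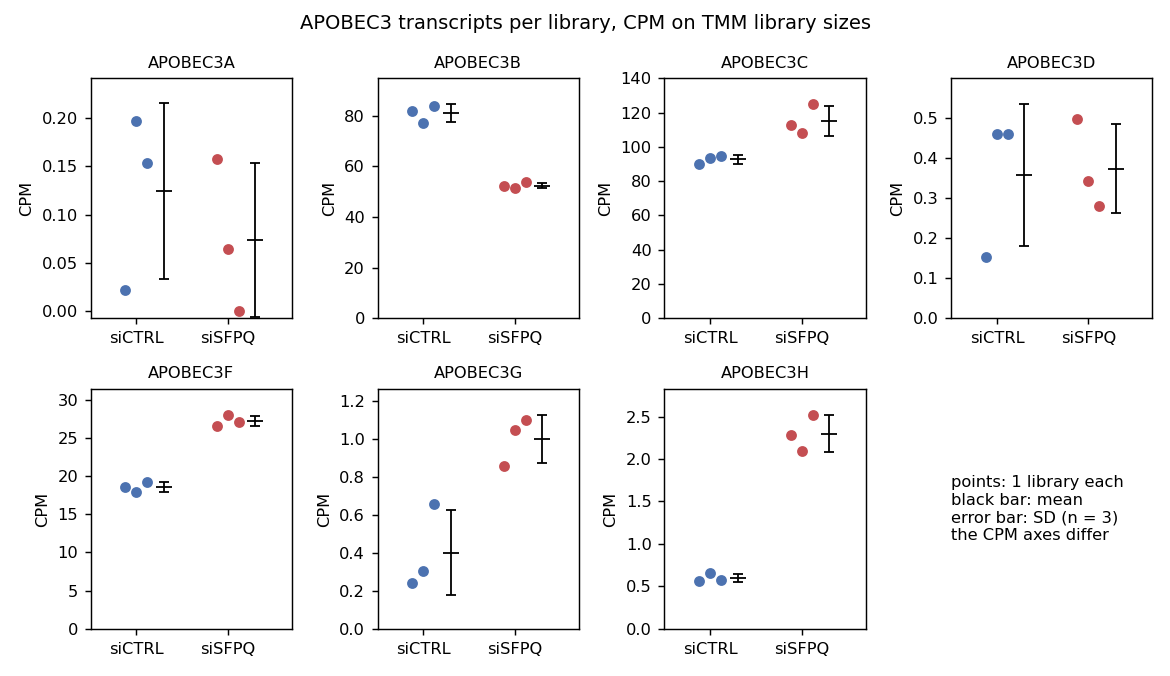
Level of each APOBEC3 gene in CPM on TMM library sizes, with 1 point per library and the mean ± SD (n = 3) in black; each panel has its own axis. The siSFPQ points lie above the siCTRL points for APOBEC3C, APOBEC3F, APOBEC3G and APOBEC3H and below them for APOBEC3B, and the points overlap for APOBEC3A and APOBEC3D.

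**Figure D2:**
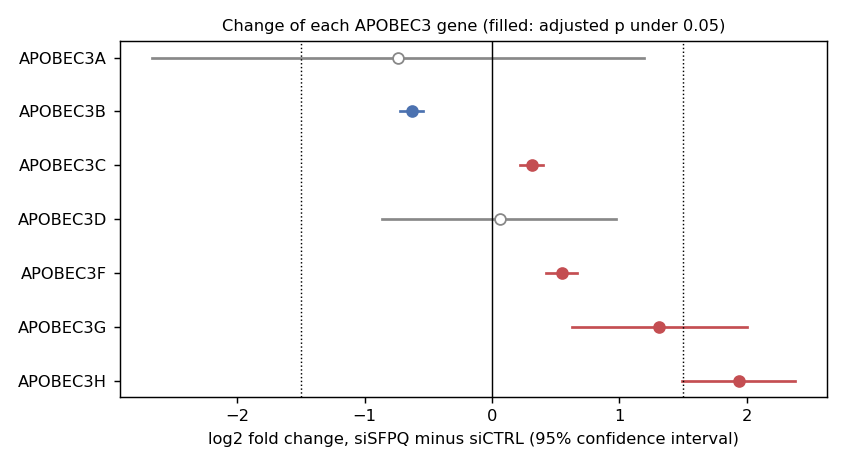
Log2 fold change of each APOBEC3 gene (siSFPQ minus siCTRL) with its 95% confidence interval from edgeR; filled points had an adjusted p under 0.05 and dotted lines stand at 1.5 and -1.5. The intervals are narrow for the abundant APOBEC3B, APOBEC3C and APOBEC3F and wide for the scarce members, and only APOBEC3H, at 1.94, lies past 1.5.

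Summed over the family, the counts differed little between the conditions. The 7 genes together had 8739, 8695 and 9124 counts in siCTRL and 8675, 8911 and 9702 in siSFPQ. The sum was 194 ± 5.38 CPM in siCTRL and 198 ± 9.62 CPM in siSFPQ, and the libraries of the conditions overlapped. The overlap depended on the scaling: by library size alone, the sums were 189, 185 and 195 CPM in siCTRL and 200, 196 and 213 CPM in siSFPQ, which do not overlap, with a fold of 1.07 in place of 1.02. This sum does not depend on how reads were divided between the members, although reads discarded for fitting several genes would be missing from it. Within it, APOBEC3B made up 41.8% ± 1.15 of the counts in siCTRL and 26.4% ± 0.693 in siSFPQ. APOBEC3C went from 47.9% ± 1.18 to 58.0% ± 1.55, and APOBEC3F from 9.58% ± 0.166 to 13.7% ± 0.889. The ratio of APOBEC3C to APOBEC3B counts was 1.10, 1.21 and 1.13 in the siCTRL libraries and 2.17, 2.10 and 2.32 in the siSFPQ libraries. APOBEC3H was a minor component throughout, with 0.309% ± 0.0317 of the family's counts in siCTRL and 1.16% ± 0.0535 in siSFPQ. In bulk RNA, a change in the number of cells that express a gene and a change in the RNA per cell cannot be told apart.

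**Figure D3:**
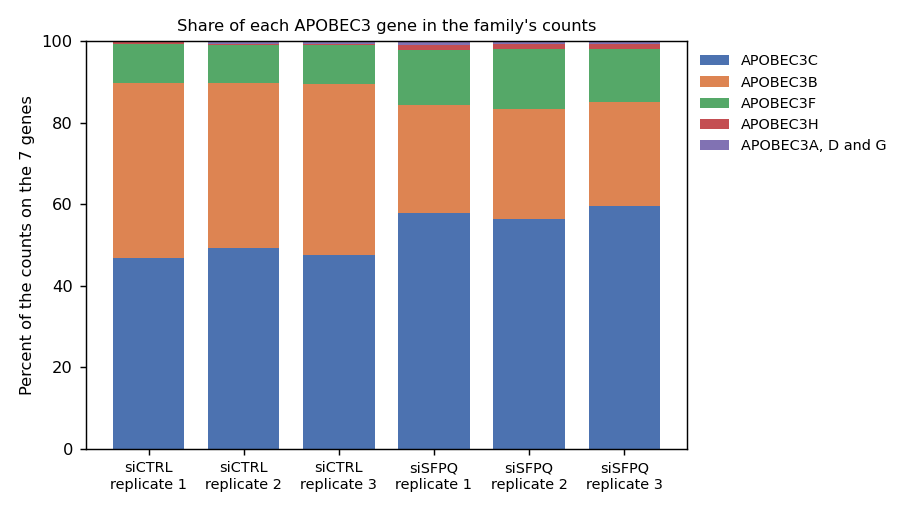
Share of each gene in the counts on the 7 APOBEC3 genes, in percent, for each library. The APOBEC3B segment is between 40.5% and 42.8% in the siCTRL libraries and between 25.6% and 27.0% in the siSFPQ libraries, and the segments of APOBEC3C and APOBEC3F are larger in siSFPQ.

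Levels of different genes were compared per kilobase of merged exon length. In siCTRL, APOBEC3B was the highest with 42.7 ± 1.87 CPM per kb, followed by APOBEC3C with 35.1 ± 1.00 CPM per kb and APOBEC3F with 3.56 ± 0.127 CPM per kb. APOBEC3H (0.478 ± 0.0397 CPM per kb) came next. APOBEC3D, APOBEC3G and APOBEC3A followed at 0.141, 0.0747 and 0.0617 CPM per kb, where APOBEC3D did not differ from APOBEC3G, nor APOBEC3G from APOBEC3A, beyond the spread of the libraries. In siSFPQ the first and second places were exchanged. APOBEC3C then had 43.6 ± 3.28 CPM per kb and APOBEC3B 27.6 ± 0.600 CPM per kb, ahead of APOBEC3F at 5.21 ± 0.135 CPM per kb and APOBEC3H at 1.84 ± 0.171 CPM per kb. APOBEC3G (0.186 ± 0.0238 CPM per kb) and APOBEC3D (0.147 ± 0.0439 CPM per kb) overlapped, and APOBEC3A was last at 0.0368 ± 0.0395 CPM per kb. The place of APOBEC3D is uncertain in both conditions. Its full exon length was used, yet 83.2% of these bases are shared with the readthrough gene, and reads there may be missing from its counts. The exchange rests on the length used: per kilobase of coding sequence, APOBEC3C led in siCTRL too, with 163 ± 4.65 CPM per kb against 70.6 ± 3.09 CPM per kb for APOBEC3B.

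APOBEC1, APOBEC2 and APOBEC4, which belong to other branches of the APOBEC family, were hardly detected. APOBEC4, whose activity is unclear, had 2 counts in siSFPQ replicate 1 and 0 elsewhere. APOBEC1, the editor of apolipoprotein B mRNA, had 0 counts in all libraries, which allows up to 0.0676 CPM in the library with the highest floor. APOBEC2 of muscle had 4, 4 and 4 counts in siCTRL and 1, 2 and 4 in siSFPQ, with a log2 fold change of -0.76 (SE 1.0, interval -2.79 to 1.28, adjusted p = 0.589).

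The cluster was set against its surroundings on chromosome 22. Of 23 other protein-coding genes tested within 500 kb of it, 10 were higher and 9 were lower in siSFPQ, with a median log2 fold change of 0.02 and a range of -1.46 to 0.57. These are 43.5% and 39.1% of the neighbours. Of all 16477 protein-coding genes tested, 4620 were higher and 5094 (30.9%) were lower. The nearest neighbours on each side are CBX6 and CBX7, both subunits of Polycomb repressive complexes. CBX6 had a log2 fold change of 0.16 (SE 0.0373, adjusted p = 0.000695), and CBX7, which lies 16.1 kb beyond APOBEC3H, of 0.02 (SE 0.0629, adjusted p = 0.843). Among the 5 called APOBEC3 genes, the log2 fold change increased in map order. It ran from -0.63 in APOBEC3B through 0.31, 0.55 and 1.31 to 1.94 in APOBEC3H. The members that were not called are left out of this order. APOBEC3A, first on the map, had -0.74, and APOBEC3D, between APOBEC3C and APOBEC3F, had 0.06, which breaks the order. No other protein-coding gene tested within 500 kb reached the values of APOBEC3G or APOBEC3H.

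**Figure D4:**
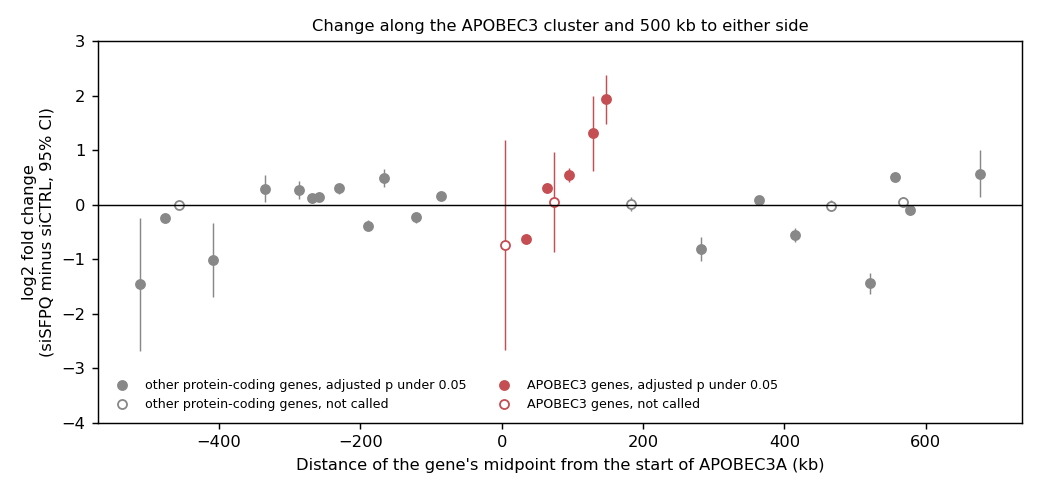
Log2 fold change (siSFPQ minus siCTRL, with 95% confidence interval) of APOBEC3 genes and of the other protein-coding genes tested within 500 kb, against the distance of the gene's midpoint from the start of APOBEC3A in kb; filled points had an adjusted p under 0.05. APOBEC3G at 1.31 and APOBEC3H at 1.94 are the highest points, and CBX7 just beyond them is at 0.02.

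A promoter sequence from RefSeq (GRCh38.p14, 250 bases before to 50 after the start site) was at hand for APOBEC3H. It was searched on both strands for 6 motifs of factors known from antiviral, NF-kB and cell cycle control. It held 1 match to AANNGAAA, a short interferon regulatory factor motif with 1 GAAA core, which 22.8% of 35116 promoters of the same length hold. The match starts 28 bases after the start site and is shown in capitals in its surroundings at chr22:39097261-39097290, plus strand, because APOBEC3H had the highest fold change of the family.
APOBEC3H, promoter window: agagctgccaaAAGTGAAActtagtgcctc

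The longer core of the interferon-stimulated response element (GAAA, any 2 bases, GAAA) had 0 matches, as did the gamma-activated site TTCNNNGAA, TATAAA and the E2F motif TTTCGCGC, which are held by 3.57%, 7.66%, 11.5% and 0.515% of promoters. A loose NF-kB motif (GGG and CC with 5 bases between them) had 3 matches, which may overlap, and 58.7% of promoters hold it. A match is only a description of the letters in this window.

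The genes that published work names as regulators of APOBEC3 transcription went in both directions. Of 21 such genes, 7 rose, 7 fell and 7 did not pass the test, with a median log2 fold change of -0.04. The share of 33.3% in each direction is close to that of all genes with a mean of at least 1 CPM, of which 30.1% rose and 34.5% fell. PRKCA, the protein kinase C isoform upstream of non-canonical NF-kB signalling, fell from 253 ± 8.61 CPM to 16.1 ± 2.30 CPM (log2 fold change -3.97, SE 0.0588, adjusted p = 3.15e-32). LIN52, a subunit of the DREAM repressor of cell cycle genes, fell as well (-1.48, SE 0.0578, adjusted p = 7.36e-21). By contrast, IRF1, an interferon-inducible activator, rose from 7.13 ± 0.609 CPM to 14.2 ± 1.46 CPM (0.99, SE 0.0918, adjusted p = 5.02e-11), and NFKB2, the precursor of the p52 subunit, rose from 54.2 ± 2.20 CPM to 94.1 ± 4.0 CPM (0.79, SE 0.0443, adjusted p = 1.31e-16). The list mixes activators and repressors, so its median has no single reading.

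Other antiviral restriction factors were described as a second context. Of 24 tested out of 25 listed, 9 rose, 4 fell and 11 did not pass the test, and the median log2 fold change was 0.05. The shares were 37.5% and 16.7%, beside 30.1% and 34.5% of the genes whose mean reached 1 CPM, and 22.4% and 22.1% of all genes tested. RSAD2, which encodes viperin, had 4, 9 and 7 counts in siCTRL and 111, 119 and 131 in siSFPQ (log2 fold change 4.14, SE 0.284, adjusted p = 2.96e-14). MX2, a dynamin-like inhibitor of HIV, went from 0.591 ± 0.132 CPM to 1.97 ± 0.589 CPM (1.73, SE 0.252, adjusted p = 6.39e-07). IFITM3 and ZC3HAV1, an inhibitor of virus entry and a sensor of CpG-rich viral RNA, rose by 0.44 each on the log2 scale. HERC5 had 0 counts in all siCTRL libraries and 6, 3 and 5 in siSFPQ, so its fitted value is not a fold change. RSAD2, MX2 and HERC5 are also in the innate immunity signature that the study drew from these libraries. Their rises here are therefore not independent evidence of that choice.

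Uracil left in DNA by deamination is removed by base excision repair. Of 15 genes of uracil DNA repair, 5 rose, 5 fell and 5 did not pass the test, with a median log2 fold change of 0.06. At 33.3% in each direction, this too is near the 30.1% and 34.5% of genes with a mean of at least 1 CPM. UNG, the main uracil-DNA glycosylase, fell from 64.1 ± 0.814 CPM to 43.2 ± 0.485 CPM (-0.57, SE 0.0443, adjusted p = 7.09e-13). DUT, which keeps dUTP out of the nucleotide pool, fell by 0.49 on the log2 scale, and SMUG1, a second uracil-DNA glycosylase, fell by 0.47. HMCES, which protects abasic sites in single-stranded DNA, rose by 0.32 (SE 0.0430, adjusted p = 1.64e-07).

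Of 13 further nucleoside and RNA deaminases, 6 rose, 4 fell and 3 did not pass the test (median 0.11). These are 46.2% and 30.8% of the list, beside 30.1% and 34.5% of genes with a mean of at least 1 CPM. The 4 with the highest absolute change that met the rule for naming all rose. ADA and CDA, the adenosine and cytidine deaminases of nucleotide salvage, had log2 fold changes of 1.19 (SE 0.0714, adjusted p = 8.82e-16) and 1.01 (SE 0.116, adjusted p = 5.97e-09). AMPD2, an AMP deaminase, and ADAT2, a tRNA adenosine deaminase, rose by 0.75 and 0.70. Of the 2 APOBEC1 cofactors, A1CF had 7, 5 and 4 counts in siCTRL and 21, 27 and 33 in siSFPQ (2.31, SE 0.473, adjusted p = 0.000124), and RBM47 fell from 5.06 ± 0.482 CPM to 2.08 ± 0.128 CPM (-1.28, SE 0.137, adjusted p = 1.31e-09).

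**Figure D5:**
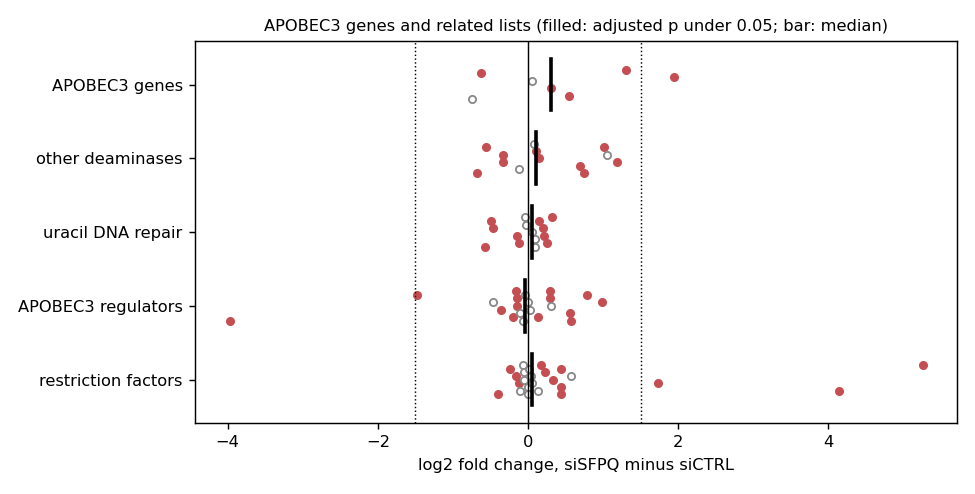
Log2 fold change (siSFPQ minus siCTRL) of every gene tested in 5 lists, with 1 point per gene, filled where the adjusted p was under 0.05, and a black bar at the median; dotted lines stand at 1.5 and -1.5. The medians are 0.31 for APOBEC3 genes, 0.11 for other deaminases, 0.06 for uracil DNA repair, -0.04 for regulators and 0.05 for restriction factors, and the point at 5.26 is HERC5, which had 0 counts in siCTRL.

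Genes whose log2 CPM followed that of a member most closely over the 6 libraries were also listed. With 2 conditions of 3 libraries, such a correlation mostly reflects the difference between conditions, and of 15641 genes with a mean of at least 1 CPM, 410 had a Pearson r over 0.99 with APOBEC3B, 17 with APOBEC3C, 224 with APOBEC3F and 544 with APOBEC3H. The closest to APOBEC3H was MLKL, the executor of necroptosis (r = 0.9998), ahead of SCN4B and EFNA1 (both 0.9996). MLKL and APOBEC3H are both in the innate immunity signature that the study drew from these libraries, so their likeness is not independent of it. The closest to APOBEC3B were SAYSD1 (0.9993), RAB26 (0.9991) and RBBP9 (0.9991). S100A16 (0.9965), GRINA (0.9956) and RIN2 (0.9945) were closest to APOBEC3C, and RNF19B (0.9993), DENND6B (0.9991) and MMP13 (0.9989) to APOBEC3F.

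Since several APOBEC3 genes are abundant in white blood cells, markers of leukocytes were read in the same libraries. Of 12 such genes, 1 had a mean of at least 1 CPM, and CD3E, LYZ and CD68 never exceeded 3 counts. The summed level of the 12 genes ranged from 4.10 to 5.47 CPM in siCTRL and from 5.71 to 6.34 CPM in siSFPQ. Of the 8 that could be tested, CD3D, CD4 and ITGAM rose, and PTPRC (CD45), which all leukocytes carry, fell from 0.693 ± 0.146 CPM to 0.226 ± 0.103 CPM (log2 fold change -1.61, SE 0.409, adjusted p = 0.00147). These are 37.5% higher and 12.5% lower, beside 22.4% and 22.1% of all genes tested. The libraries of CD3D and of CD4 overlapped between the conditions. The part of the leukocyte markers in the APOBEC3 values was not tested. Of 10 osteosarcoma and mesenchymal markers, 8 were tested, 2 rose and 3 fell. These are 25.0% and 37.5% of the tested markers, beside 22.4% and 22.1% of all genes tested. The summed level of the 10 markers ranged from 5980 to 6310 CPM in siCTRL and from 5480 to 5500 CPM in siSFPQ, most of it COL1A1, SPARC and VIM. SP7, BGLAP and IBSP, markers of the osteoblast lineage, had means of at most 0.123 CPM in either condition, although BGLAP, with 0, 0 and 1 counts in siCTRL and 5, 6 and 6 in siSFPQ, was one of those that rose (adjusted p = 0.0199). SPP1, which encodes osteopontin, fell from 18.3 ± 0.258 CPM to 7.27 ± 0.503 CPM (log2 fold change -1.33, SE 0.0803, adjusted p = 1.08e-15).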

How the data were processed

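RNA-seq was available from 6 libraries of U2-OS cells (3 siCTRL and 3 siSFPQ, grouped by their titles). PolyA RNA was sequenced as paired reads of 150 bases from TruSeq libraries. Per the labels and the study's methods, the authors checked reads with FastQC, aligned them with STAR 2.7.9a to Ensembl GRCh38 and deposited raw counts per Ensembl gene. The labels name the TruSeq RNA kit and the methods its stranded version; the strand setting of the counting and the treatment of reads that map to several genes are not given in the sources used here, so reads of close paralogs may have been lost or moved between them. The authors' own comparison used DESeq2. Names, positions and exon lengths were matched by identifier to GENCODE release 44 (60463 of 60664 genes).

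Genes with at least 10 counts in total (29022) entered edgeR 4.0.16 under R 4.3.3 (TMM, quasi-likelihood, no covariates), with Benjamini-Hochberg adjustment over all genes tested. A gene was called at an adjusted p under 0.05, and a second rule added a log2 fold change over 1.5 or under -1.5. Standard errors came from the log2 fold change and the F statistic. The test was checked on simulated counts with known changes. Replicate libraries of a condition differed by more than sampling noise. P-values describe the spread between these libraries.

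Beside the members, the genes named were SFPQ, other APOBEC genes, protein-coding genes within 100 kb, at most 4 genes of each list with the highest absolute log2 fold change (adjusted p under 0.05, a mean of at least 1 CPM, no overlap between conditions), and the 3 genes most correlated with each member of at least 1 CPM. HERC5, A1CF, the markers in the text that this rule does not give and the annotated transcripts overlapping the cluster were named after their values were seen. Some genes that the rule or the lists give are not reported here. The members and lists were chosen with earlier results of these data known. Alternatives were RLE size factors, library size alone, filterByExpr, no filter, DESeq2 1.42.0, a block for the replicate number, a fit to protein-coding genes, a fold limit of 1 on the log2 scale, coding length, and each library left out in turn.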

Additional observations from a re-analysis of the deposited data

How the results depend on the processing

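The number of APOBEC3 genes called higher (4) and lower (1) was unchanged in all 13 alternatives, which include RLE size factors, library size alone, both other filters, DESeq2, the replicate block, protein-coding genes only and each library left out. APOBEC3B, APOBEC3C, APOBEC3F, APOBEC3G and APOBEC3H kept their direction and their call in each of these. Over all genes tested, 15.5% were called higher and 16.1% lower with no filter. With protein-coding genes only, these shares were 30.5% and 30.7%, and those of the other alternatives lay between. The replicate numbers did not pair the libraries (correlations of the deviations of same-numbered libraries -0.025, 0.070 and 0.036), and with the replicate block the log2 fold change was -0.63 for APOBEC3B, 0.31 for APOBEC3C, 0.55 for APOBEC3F, 1.37 for APOBEC3G and 1.93 for APOBEC3H.

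The number of genes past a log2 fold change of 1.5 was 1, and ranged from 1 to 2 with 1 library left out: without siCTRL replicate 3, APOBEC3G (1.86) joined APOBEC3H. With a limit of 1 on the log2 scale it was also 2. With each library left out in turn, the log2 fold change of APOBEC3D ran from -0.30 to 0.28 and changed sign without siCTRL replicate 1 (-0.30) and without siSFPQ replicate 1 (-0.18), and that of APOBEC3A from -1.84 to -0.15; neither was called in any alternative, and APOBEC3A was not tested with filterByExpr. Coding length in place of exon length changed 4 positions in the siCTRL order of levels, by the construction of the measure. Library size alone shifted the median of all genes tested from 0.02 to 0.08 and the log2 fold of the family's sum from 0.03 to 0.10, and its libraries then no longer overlapped between the conditions. APOBEC3A and APOBEC3D had at most 22 counts in a library, and their intervals are correspondingly wide.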
